A study of Rattus norvegicus with 12 samples.

Results

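The 9 genes described here carry glucose and fructose across membranes of kidney tubule cells, start the breakdown of fructose or serve to rebuild glucose. They are the sodium-glucose transporters Slc5a1 and Slc5a2, the facilitative sugar transporters Slc2a1, Slc2a2 and Slc2a5, the ketohexokinase Khk, the fructose bisphosphatase Fbp1 and the phosphoenolpyruvate carboxykinases Pck1 and Pck2. They were chosen by gene symbol alone, 9 of the 32623 genes in the count table, and all 9 were among the 15856 genes kept for testing. The messenger RNA of kidney cortex was sequenced in 12 libraries from male rats aged 6 weeks, all labelled with the strain SS-Xdhem1Mcwi. SS is the prefix of the Dahl salt-sensitive rat, and em1 marks an allele made with an endonuclease in Xdh, whose product xanthine dehydrogenase makes uric acid. The groups were 4 wild-type libraries (WT), 4 from rats heterozygous for the allele (HET, replicates 1, 2, 4 and 5) and 4 from homozygous rats (HOMO), all littermates per the series design. No agent is given in the labels, the allele is carried in the germ line and so in every cell type, and the labels state neither which part of Xdh was altered nor whether tissue of several animals was pooled.

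As background, the kidney filters glucose and takes nearly all of it back in the proximal tubule. Slc5a2 (SGLT2) does most of this at the apical membrane of the early, convoluted segment, and Slc5a1 (SGLT1) takes up what remains in the straight segment. Slc2a5 (GLUT5) is an apical fructose transporter that is known in the kidney from the straight segment, and Khk phosphorylates the fructose that enters. Glucose leaves across the basolateral membrane through Slc2a2 (GLUT2), while Slc2a1 (GLUT1) serves many cell types, among them later tubule segments that burn glucose. The proximal tubule also makes glucose from lactate, glutamine and glycerol. In that pathway Pck1, in the cytosol, and Pck2, in mitochondria, make phosphoenolpyruvate, and Fbp1 removes a phosphate from fructose bisphosphate, a step that glycolysis cannot run backwards.

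Total counts ran from 18995464 in HET replicate 5 to 37023629 in HET replicate 1, and the lowest count of any of the 9 genes in a library was 127. Xdh itself stood at 57.6 to 61.7 CPM (read counts scaled to the library total, on the TMM scale of edgeR) in HOMO replicates 1, 2 and 4, but the library labelled HOMO replicate 3 had 230 CPM, inside the WT range of 212 to 380. In the same library Khk (32.0 CPM), Fbp1 (110 CPM) and the sum of 12 proximal tubule markers (2168 CPM) lay far below all WT and HET libraries. Why its Xdh level differs from that of the other HOMO libraries was not tested. Results are therefore also given without that library. The defining markers of the labelled tissue were present. The 12 proximal tubule markers summed to between 23120 and 28424 CPM in WT, between 24226 and 27367 CPM in HET and between 2168 and 2821 CPM in HOMO, and the 6 leukocyte markers to between 183 and 291 CPM in WT and between 1411 and 2051 CPM in HOMO. In bulk tissue, fewer cells of a type and less RNA per cell cannot be told apart, which touches every value below. The mitochondrial genome took 12.9% to 18.6% of counts in WT and HET and 5.97% to 6.75% in HOMO, and the part of these library differences in the results was not tested.

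The promoters of 4 of the genes are shown because their genes behaved differently in the libraries. Slc5a2 and Pck1 fell in HOMO, Pck1 with a far wider spread, while Pck2 rose and Slc2a1 did not pass the test against WT. Each sequence runs 5′ to 3′ on the gene's own strand, from 250 bases before to 50 bases after the start that RefSeq gives on build GRCr8, and is copied from a RefSeq table that held all 9 genes. The Slc5a2 window is chr1:192277371-192277670 on the plus strand, and its capitals mark the hypoxia response core ACGTG, read here from the other strand, at position 14 from the start.

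Slc5a2: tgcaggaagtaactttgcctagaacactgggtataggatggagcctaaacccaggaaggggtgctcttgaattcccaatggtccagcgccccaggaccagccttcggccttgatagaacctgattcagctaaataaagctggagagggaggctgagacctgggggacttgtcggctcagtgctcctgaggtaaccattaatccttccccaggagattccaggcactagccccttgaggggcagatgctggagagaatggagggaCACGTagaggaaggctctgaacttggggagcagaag

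The Pck1 window is chr3:182348322-182348621 on the plus strand. Its capitals mark the core of the cAMP response element, CGTCA, at position -90. The cAMP response element is the site through which fasting hormones are known to switch this gene on in rat liver.

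Pck1: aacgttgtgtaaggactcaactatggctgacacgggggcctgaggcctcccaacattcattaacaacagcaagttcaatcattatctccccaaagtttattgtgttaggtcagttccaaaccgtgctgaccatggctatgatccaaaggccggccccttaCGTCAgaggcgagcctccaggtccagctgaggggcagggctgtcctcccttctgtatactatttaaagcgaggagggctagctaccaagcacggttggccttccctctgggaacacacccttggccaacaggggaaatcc

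The Slc2a1 window is chr5:138002272-138002571 on the plus strand. Capitals mark 3 GC boxes (GGGCGG, all read from the other strand) at positions -95, -60 and -35 and the hypoxia response core ACGTG at position -51.

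Slc2a1: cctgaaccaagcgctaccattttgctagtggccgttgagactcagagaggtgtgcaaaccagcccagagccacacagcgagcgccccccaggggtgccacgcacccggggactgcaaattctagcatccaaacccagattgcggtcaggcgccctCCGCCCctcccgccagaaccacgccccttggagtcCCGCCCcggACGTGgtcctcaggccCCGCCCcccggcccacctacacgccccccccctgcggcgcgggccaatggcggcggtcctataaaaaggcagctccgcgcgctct

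The Pck2 window is chr15:32997603-32997902 on the plus strand, and capitals mark 4 GC boxes, at positions -188 and -132 as GGGCGG and at positions -51 and -14 on the other strand.

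Pck2: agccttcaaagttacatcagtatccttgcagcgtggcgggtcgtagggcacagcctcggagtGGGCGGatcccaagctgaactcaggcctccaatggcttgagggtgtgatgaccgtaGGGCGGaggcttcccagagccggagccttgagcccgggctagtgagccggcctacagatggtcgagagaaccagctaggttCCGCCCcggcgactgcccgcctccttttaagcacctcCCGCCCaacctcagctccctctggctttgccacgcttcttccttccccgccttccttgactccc

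Motifs were searched on both strands in the same window of all 33469 promoters in the table. CGTCA, which is also part of the full cAMP response element, stood in 21.2% of them and in Pck1 alone among the 9 genes. ACGTG stood in 19.2% and in 3 of the 9 (Slc5a1, Slc5a2 and Slc2a1), and GGGCGG in 33.1% and in 4 of the 9 (Slc2a1, Khk, Fbp1 and Pck2). G and C made up 68.3% of the Slc2a1 window, 62.7% of the Pck2 window, 54.7% of the Slc5a2 window and 53.3% of the Pck1 window, beside a median of 51.7% over all promoters. In the remaining genes, all of which fell in HOMO, the share was 64.7% for Slc5a1, 61.0% for Fbp1 and 60.0% for Khk. It was 52.0% for Slc2a5 and 47.7% for Slc2a2, so the share did not separate the genes that fell from the others. These matches describe letters and do not show that a factor binds. The searches for the GC box and the cores of the cAMP and hypoxia elements were chosen after the promoters had been seen, and the other motif searches are not reported here.

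In HOMO against WT, 7 of the 9 genes fell, Pck2 rose and Slc2a1 did not pass the test, by edgeR's quasi-likelihood test with Benjamini-Hochberg adjustment over all genes tested at a level of 0.05. Over all genes, 37.0% were called higher and 34.7% lower, and 66.4% had groups that did not overlap, against 7 of the 9 genes. The median log2 fold change of the 9 genes was -1.98, and that of all genes tested was 0.04. In HOMO against HET, 7 genes fell and 2 rose, where 36.2% of all genes were called higher, 34.5% lower and 64.4% did not overlap (8 of the 9 genes). In HET against WT, edgeR called none of the 9 genes and 0% of all genes, and 1.62% of all genes did not overlap (0 of the 9). Both HOMO comparisons use the same 4 HOMO libraries, so they are not independent of each other.

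**Figure D1:**
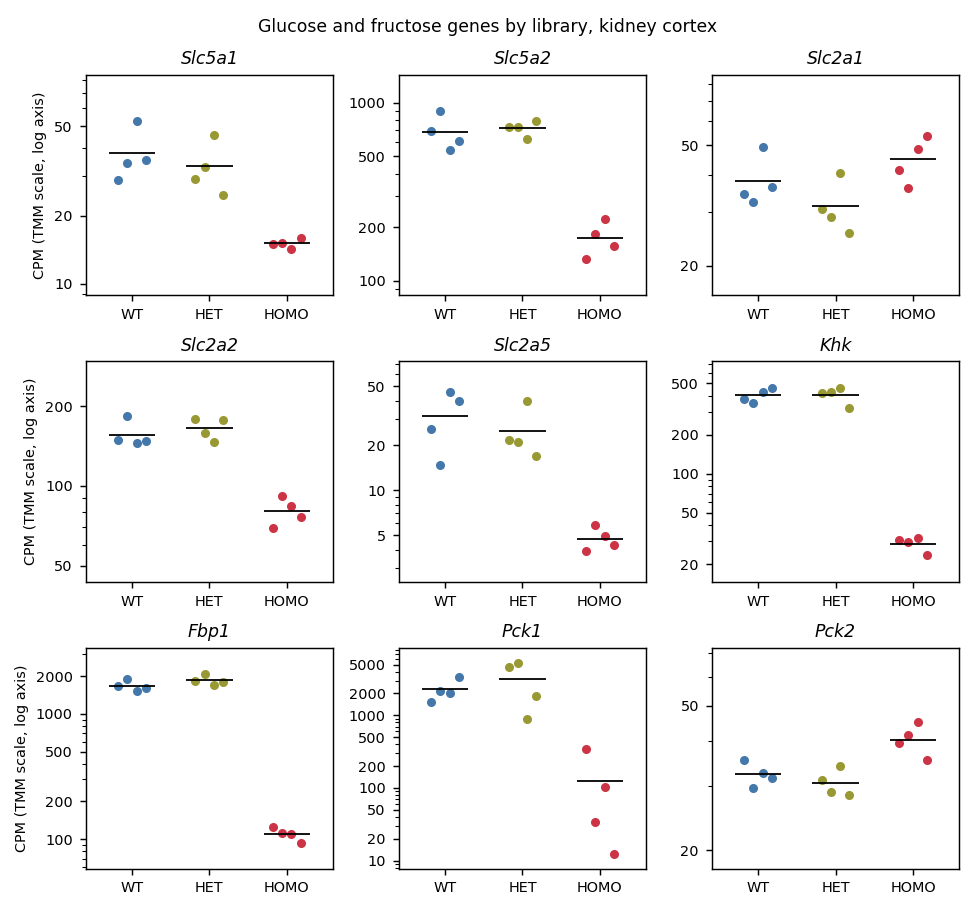
Level of each of the 9 genes in every library, in CPM on the TMM scale (log axis, a different range in each panel). Each point is a library, 4 per genotype, and the line is the mean. The HOMO libraries lie below all WT and HET libraries for 7 genes, with Pck1 spread from 12.3 to 341 CPM, and overlap WT for Slc2a1 and Pck2.

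Slc5a2, the main apical glucose transporter (ENSRNOG00000020039, on chromosome 1 from listed position 199682688, build Rnor_6.0 as for the genes below), stood at 695, 901, 542 and 607 CPM in WT replicates 1 to 4. In HET replicates 1, 2, 4 and 5 it stood at 730, 734, 629 and 793 CPM, and in HOMO replicates 1 to 4 at 133, 182, 223 and 156 CPM. All HOMO libraries lay below all others, and WT and HET overlapped. The HOMO mean of 173 ± 38.6 CPM (SD, n = 4) was 25.3% of the WT mean of 686 ± 156 CPM, a log2 fold change of -1.98 ± 0.18 (SE, adjusted p = 4.89e-07). Against HET the log2 fold change was -2.06 ± 0.18 (adjusted p = 3.64e-07).

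Slc5a1, the transporter of the straight segment (ENSRNOG00000017775, chromosome 14 from position 82909981), stood at 28.8, 34.4, 52.9 and 35.5 CPM in WT, at 29.2, 33.0, 45.6 and 24.8 CPM in HET and at 15.01, 15.1, 14.3 and 16.0 CPM in HOMO, in the order of replicates. The HOMO libraries were lower than all others and lay close together, with an SD of 0.07 on the log2 scale, smaller than that of all but 9.29% of genes in the same libraries. The gene fell by 1.33 on the log2 scale against WT (SE 0.20, adjusted p = 6.22e-05) and by 1.14 against HET (SE 0.20, adjusted p = 2.29e-04).

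Slc2a5, the fructose transporter (ENSRNOG00000017693, chromosome 5 from position 167141875), was at 25.6, 14.8, 45.7 and 39.5 CPM in WT, 21.7, 21.0, 39.9 and 16.9 CPM in HET and 3.88, 5.85, 4.91 and 4.30 CPM in HOMO. WT libraries differed by up to 3.09-fold, and the highest HOMO library was still below the lowest WT and HET libraries. The log2 fold change was -2.73 ± 0.37 against WT (adjusted p = 3.40e-05) and -2.39 ± 0.36 against HET (adjusted p = 9.61e-05), so that the HOMO mean was 15.1% of the WT mean.

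Slc2a5 varied among WT and HET libraries with the summed level of straight segment markers, and Slc5a1 shared the highest libraries of these sums. The 6 straight segment markers (Slc7a13, Slc22a7, Slc6a18, Slc22a13, Slc5a8 and Napsa) summed to 2571, 1458, 4504 and 3767 CPM in WT, to 1961, 1929, 3869 and 1500 CPM in HET and to 292, 385, 369 and 279 CPM in HOMO. Slc7a13 made up most of the spread in WT and HET, from 40.5 to 2949 CPM in WT and from 155 to 2262 CPM in HET. Napsa ran only from 901 to 1211 CPM in WT and from 975 to 1107 CPM in HET. Within WT and within HET, Slc2a5 had the same order of libraries as these sums. Slc5a1 was highest in the same libraries as the sums, WT replicate 3 and HET replicate 4, but its other libraries had a different order. Slc2a1 was highest in both as well, at 49.4 and 40.6 CPM. The 10 distal nephron markers were also highest there, at 7620 CPM in WT replicate 3 and 6105 CPM in HET replicate 4, beside 4310 to 6353 CPM in the other WT and 4470 to 4901 CPM in the other HET libraries. Why these libraries differ was not tested.

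**Figure D2:**
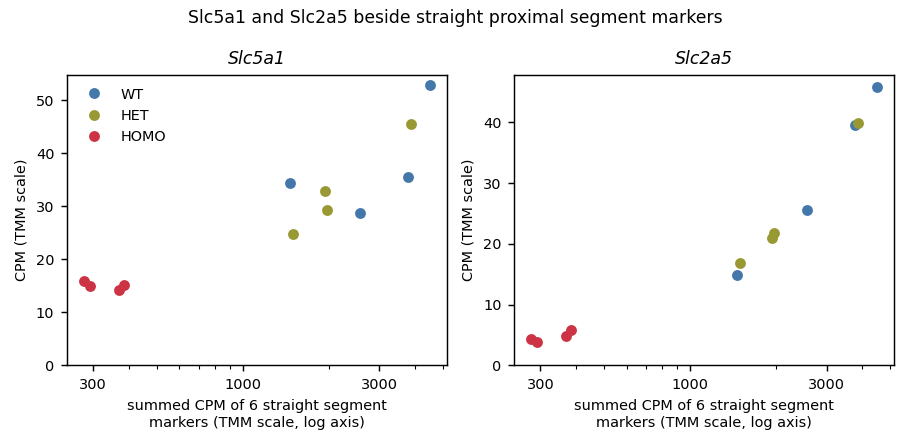
Level of Slc5a1 (left) and Slc2a5 (right) in CPM against the summed CPM of 6 straight segment markers in the same library (log axis), with WT, HET and HOMO libraries as colored points. Slc2a5 follows the sums from 14.8 CPM at 1458 to 45.7 CPM at 4504 in WT, and the HOMO libraries lie at sums of 279 to 385. All points share the library scale.

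Slc2a2, the basolateral exit for glucose (ENSRNOG00000011875, chromosome 2 from position 114413410), stood at 149, 184, 145 and 148 CPM in WT, 178, 159, 146 and 177 CPM in HET and 69.5, 91.7, 84.0 and 76.0 CPM in HOMO. Every HOMO library was lower than every other library, and WT replicate 2 stood above the other 3 WT libraries. The log2 fold change was -0.96 ± 0.11 against WT (adjusted p = 3.50e-06), a HOMO mean 51.4% of that of WT, and -1.04 ± 0.11 against HET (adjusted p = 1.70e-06). Of the 7 genes that fell in HOMO against WT, Slc2a2 had the smallest change.

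Slc2a1, the broadly used glucose transporter (ENSRNOG00000007284, chromosome 5 from position 138154673), stood at 34.5, 32.5, 49.4 and 36.4 CPM in WT, 30.8, 29.0, 40.6 and 25.6 CPM in HET and 41.4, 36.2, 48.7 and 53.5 CPM in HOMO. The groups overlapped in every comparison. Against WT the log2 fold change was 0.23 ± 0.17, with a 95% interval of -0.13 to 0.60 (adjusted p = 0.231), and against HET it was 0.51 ± 0.17 (adjusted p = 0.0167). The call against HET was lost without HET replicate 5 (0.42, adjusted p = 0.0549) or without HOMO replicate 4 (0.42, adjusted p = 0.0544). Against WT the gene was called with library size alone as the scale (0.84, adjusted p = 5.50e-04).

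Khk, which commits fructose to breakdown (ENSRNOG00000008047, chromosome 6 from position 26810579), stood at 378, 353, 426 and 460 CPM in WT, 421, 431, 459 and 322 CPM in HET and 30.6, 29.6, 32.0 and 23.4 CPM in HOMO. The HOMO libraries were all far below the others, which overlapped. The HOMO mean of 28.9 ± 3.796 CPM was 7.15% of the WT mean of 404 ± 47.6 CPM. On the log2 scale the gene fell by 3.81 against WT (SE 0.14, adjusted p = 2.39e-10) and by 3.82 against HET (SE 0.14, adjusted p = 2.19e-10).

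Fbp1, a gluconeogenic step (ENSRNOG00000017597, chromosome 17 from position 396180), stood at 1673, 1882, 1522 and 1612 CPM in WT, 1842, 2082, 1684 and 1804 CPM in HET and 125, 111, 110 and 93.0 CPM in HOMO. Its libraries agreed closely within each group, with an SD of at most 0.18 on the log2 scale, and HOMO lay apart from both others. The log2 fold change was -4.07 ± 0.12 against HET (adjusted p = 5.92e-11), and the HOMO mean was 6.57% of the WT mean.

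Pck1, the cytosolic carboxykinase that fasting and acidosis are known to induce in the proximal tubule (ENSRNOG00000028616, chromosome 3 from position 171213936), stood at 1541, 2152, 2044 and 3342 CPM in WT. In HET it stood at 4646 and 5233 CPM in replicates 1 and 2 but at 901 and 1858 CPM in replicates 4 and 5. In HOMO it stood at 341, 33.5, 104 and 12.3 CPM. The HOMO libraries lay below all others and differed among themselves by up to 27.7-fold, against 5.81-fold in HET and 2.17-fold in WT. On the log2 scale the SD was 2.06 in HOMO, larger than that of 99.7% of genes in the same libraries, 1.19 in HET, larger than that of 98.3%, and 0.46 in WT, larger than that of 85.4%. The log2 fold change of Pck1 was -4.21 ± 1.01 against WT (adjusted p = 0.00353) and -4.69 ± 1.03 against HET (adjusted p = 0.00214). Without HOMO replicate 1, its highest HOMO library, the log2 fold change against WT was -5.50 (adjusted p = 6.19e-04), and without any other library it lay between -4.35 and -3.83.

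G6pc, the glucose-6-phosphatase that releases free glucose at the end of the pathway, was set beside Pck1 after its values had been seen. It stood at 510, 707, 607 and 572 CPM in WT, at 895 and 1081 CPM in HET replicates 1 and 2, and at 382 and 573 CPM in HET replicates 4 and 5. HET replicates 1 and 2 were thus the highest of the 12 libraries for both genes. In HOMO, G6pc stood at 54.2, 32.6, 151 and 37.3 CPM, an order that differs from that of Pck1. Adipose tissue also uses Pck1, and the 5 adipocyte markers summed to 1319 CPM in HOMO replicate 1 and 433 CPM in HET replicate 1, against 16.8 to 52.7 CPM in the other libraries. HET replicate 2, with the highest Pck1, had an adipocyte sum of 24.96 CPM. The part of fat in the Pck1 levels of HOMO replicate 1 and HET replicate 1 was not tested.

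Pck2, the mitochondrial carboxykinase (ENSRNOG00000018536, chromosome 15 from position 34216833), stood at 35.4, 29.7, 32.8 and 31.7 CPM in WT, 31.2, 29.0, 34.3 and 28.5 CPM in HET and 39.6, 41.5, 45.01 and 35.4 CPM in HOMO. The HOMO libraries lay above all HET libraries, while HOMO replicate 4 met the highest WT library. The HOMO mean of 40.4 ± 4.02 CPM was 1.25 times the WT mean of 32.4 ± 2.40 CPM. The log2 fold change was 0.32 ± 0.09 against WT (adjusted p = 0.00588) and 0.39 ± 0.09 against HET (adjusted p = 0.00147).

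**Figure D3:**
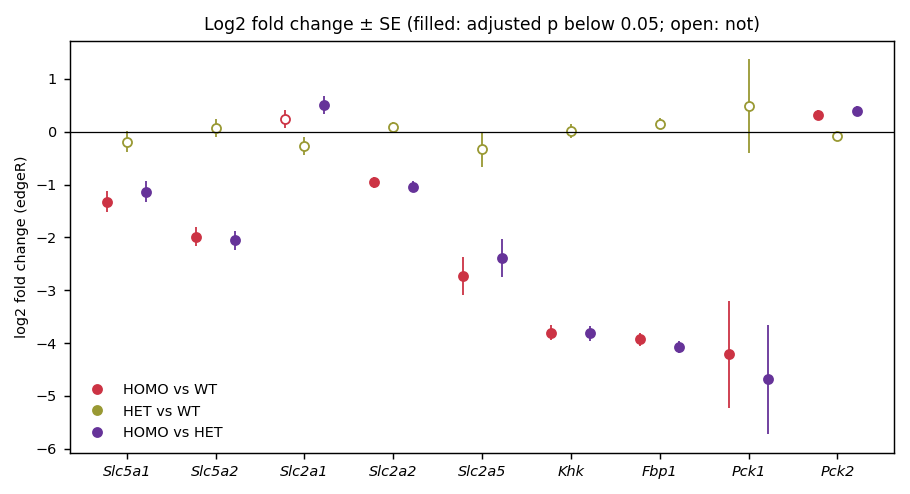
Log2 fold change of each gene with its SE from the edgeR fit, for HOMO against WT, HET against WT and HOMO against HET. Filled points passed an adjusted p of 0.05 and open points did not. HET against WT stays between -0.34 and 0.48 with no gene called, and Pck1 has the widest errors.

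A single mutated allele gave no call for any of the 9 genes, and the intervals say how large a difference remained possible. For Slc5a2 the HET against WT log2 fold change was 0.07 with a 95% interval of -0.30 to 0.44, for Khk 0.01 (-0.26 to 0.29), for Slc2a2 0.08 (-0.15 to 0.31) and for Fbp1 0.15 (-0.08 to 0.38). Pck2 gave -0.08 (-0.27 to 0.12), Slc5a1 -0.19 (-0.62 to 0.23), Slc2a1 -0.28 (-0.65 to 0.09) and Slc2a5 -0.34 (-1.08 to 0.41). Pck1 gave 0.48 with an interval of -1.50 to 2.46, too wide to say whether its level differed. All adjusted p-values were 1, 318 of all genes tested had an unadjusted p under 0.05 in edgeR, and DESeq2 called 1 gene in all, none of the 9.

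Scale and labelling bear on the folds. With library size alone as the scale, the median log2 fold change of all genes moved from 0.04 to 0.65 in HOMO against WT, the share of called genes that were higher moved from 51.6% to 80.1%, and no direction among the 9 genes turned. The log2 fold change then became -0.71 for Slc5a1, -1.36 for Slc5a2, -0.34 for Slc2a2 and 0.93 for Pck2, each still called, while Khk stood at -3.19, Fbp1 at -3.31, Slc2a5 at -2.12 and Pck1 at -3.58. In HOMO against HET the median of all genes moved to 0.67 and the share from 51.2% to 80.5%. Without the library labelled HOMO replicate 3, the log2 fold changes against WT were -1.31 for Slc5a1, -2.13 for Slc5a2, -0.99 for Slc2a2, -2.75 for Slc2a5, -3.86 for Khk, -3.93 for Fbp1, -4.14 for Pck1 (adjusted p = 0.0134) and 0.26 for Pck2 (adjusted p = 0.02005). Slc2a1 then stood at 0.19 (adjusted p = 0.383), and every other call of the 9 genes remained. In the authors' deposited table for the same comparison, the same 7 genes are called lower and Pck2 higher, with Slc2a1 not called, and in their table for HOMO against HET Slc2a1 and Pck2 are called higher.

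Compared per kilobase of listed gene length, the levels in WT ran from Fbp1 (1153 CPM per kilobase) and Pck1 (866), whose libraries overlapped, through Slc5a2 (287) and Khk (283), which also overlapped, to Slc2a2 (58.6), which stood apart from both neighbours. Pck2 (16.8), Slc2a1 (14.7), Slc5a1 (12.9) and Slc2a5 (12.2) followed, each overlapping the next. In HOMO the order on the same scale was Fbp1 (75.8), Slc5a2 (72.5), Pck1 (46.8) and Slc2a2 (30.1), each overlapping the next, then Pck2 (21.0), Khk (20.2) and Slc2a1 (17.3), and last Slc5a1 (5.12) and Slc2a5 (1.83), which did not overlap each other. The wide HOMO range of Pck1, from 4.71 to 130 CPM per kilobase, reached over those of Fbp1, Slc5a2, Slc2a2, Pck2, Khk, Slc2a1 and Slc5a1. Khk thus stood above Slc2a2 in WT, at 283 against 58.6, and below it in HOMO, at 20.2 against 30.1.

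Ratios of paired genes within a library do not depend on the library scale, and 12 tests of 4 ratios were adjusted together. The exact two-sided permutation test over 70 arrangements of 4 against 4 libraries cannot give a p below 0.0286, and no ratio passed 0.05 after adjustment. The log2 ratio of Pck1 to Pck2 per length was 5.63 ± 0.53 (SD) in WT, 5.92 ± 1.27 in HET and 0.18 ± 1.997 in HOMO, a difference of -5.46 between HOMO and WT (permutation p = 0.0286, adjusted 0.0571) with no overlap. The ratio of Slc2a2 to Slc2a1 was 2.003 ± 0.39 in WT and 0.80 ± 0.35 in HOMO, lower in 4 of 4 HOMO libraries (difference -1.20, permutation p = 0.0286, adjusted 0.0571). The ratio of the transporter Slc2a5 to Khk was higher in 4 of 4 HOMO libraries, at -3.47 ± 0.29 against -4.66 ± 0.58 in WT (difference 1.19, permutation p = 0.0286, adjusted 0.0571). The ratio of Slc5a2 to Slc5a1 was 4.49 ± 0.62 in WT and 3.797 ± 0.36 in HOMO, with overlap (difference -0.69, permutation p = 0.114, adjusted 0.171). Without the library labelled HOMO replicate 3 these differences were -5.65, -1.18, 1.22 and -0.85.

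The 9 genes were also set against the mean log2 CPM of the 12 proximal tubule markers in the same library, again independent of the library scale. Of 27 exact permutation tests none passed 0.05 after adjustment, where the smallest adjusted p was 0.0643. In HOMO against WT, Slc5a2 stood 1.33 higher relative to the markers, from -1.14 ± 0.25 (SD) in WT to 0.19 ± 0.37 in HOMO, and higher in 4 of 4 libraries (p = 0.0286, exact). Slc5a1 stood 2.02, Slc2a2 2.35, Slc2a1 3.55 and Pck2 3.63 higher, each in 4 of 4 libraries at the same p. The markers themselves had a median log2 fold change of -3.28, so a gene that does not change stands higher on this scale. Single markers ran from -4.93 to -1.83. The log2 fold change of Slc5a2, -1.98, lay inside that range, while those of Slc5a1 (-1.33) and Slc2a2 (-0.96) lay above it. The log2 fold changes of Slc2a1 and Pck2 themselves were 0.23 and 0.32. Fbp1 stood 0.62 lower, also without overlap. Khk was 0.50 lower (exact p = 0.0571), Slc2a5 0.71 higher (exact p = 0.114) and Pck1 1.83 lower (exact p = 0.171), each with overlap. Without the library labelled HOMO replicate 3 the differences kept their directions, at 1.16 for Slc5a2 and -0.66 for Fbp1.

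**Figure D4:**
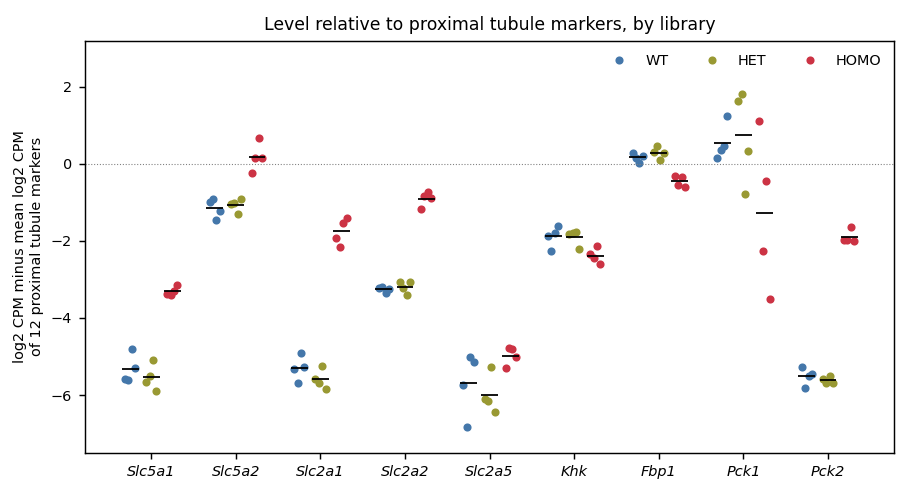
Log2 CPM of each gene minus the mean log2 CPM of 12 proximal tubule markers in the same library, by genotype, with lines for group means. HOMO libraries stand above WT and HET for Slc5a1, Slc5a2, Slc2a1, Slc2a2 and Pck2, below them for Fbp1, and overlap WT for Slc2a5, Khk and Pck1.

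The other genes of sugar transport and glucose synthesis were read from lists, each described by its counts beside the background shares above. Of 10 other genes of sugar transport tested, 9 transporters and the partner protein Pdzk1ip1, 6 fell and 2 rose in HOMO against WT, with a median log2 fold change of -0.84. Slc5a9, a mannose and glucose transporter, fell by 3.57, the inositol transporter Slc5a11 by 3.02 and Pdzk1ip1 (MAP17), known to activate SGLT2, by 1.12, from 424 ± 22.9 CPM to 195 ± 21.9 CPM. Slc2a6 rose by 3.43 and Slc2a10 by 2.36, both from under 1 CPM in WT to 2.77 and 4.58 CPM. Slc5a4 had 0 counts in all libraries.

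Of 16 other gluconeogenic enzymes and carriers, 13 fell and 1 rose, with a median of -1.79. The mitochondrial carrier Slc25a11 fell by 1.84, glycerol kinase Gk fell by 3.23 and malate dehydrogenase Mdh1 fell by 2.28, and the alanine transaminase Gpt2 rose by 0.60 (adjusted p = 0.00904). G6pc fell by 3.12, from 599 to 68.8 CPM on average, and pyruvate carboxylase Pc, named after its value was seen, fell by 3.64. Of 7 fructose and polyol enzymes, 6 fell and 1 rose, with a median of -2.34. The triokinase Tkfc, which acts on a later product of fructose breakdown, fell by 3.45, and sorbitol dehydrogenase Sord fell by 2.89. The aldose reductase Akr1b1, which makes sorbitol from glucose, rose by 1.82, from 25.2 ± 1.71 CPM to 89.2 ± 4.29 CPM.

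Reversible and irreversible steps of glycolysis were counted apart. Of 8 genes for reversible steps, which both directions share, 7 fell and 1 rose, with a median of -0.97. Eno1 fell by 1.77 and Pgk1 by 1.34, and Aldoc rose by 3.18 from 0.534 CPM. Of 11 genes for irreversible glycolytic steps and their control, 7 rose and 3 fell, with a median of 1.04. The phosphofructokinase Pfkp rose by 1.13, while Pklr, the pyruvate kinase of liver and proximal tubule, fell by 2.43 and Pfkm fell by 0.81. The leukocyte markers that rose in HOMO, 6 of 6 with a median of 2.92, move with this list, and their part in it was not tested.

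Among 14 regulators of glucose synthesis and transport, 6 fell and 4 rose, with a median of -0.34. The transcription factor Hnf4a, which keeps proximal tubule genes on, fell by 3.18, from 1102 ± 97.6 to 122 ± 24.1 CPM, and Esrra fell by 1.20. Txnip, which restrains glucose uptake, rose by 1.601, from 340 ± 32.5 to 1032 ± 305 CPM, and Foxo3 rose by 0.58. Of 10 genes of the ATF4 stress response, a route known to induce Pck2 in other cells, 4 rose and 3 fell, with a median of 0.38. Asns rose by 1.83, Mthfd2 by 1.37, and Slc7a11 and Trib3 by 5.17 and 1.49, both from under 1 CPM in WT. The serine pathway genes Psat1, Phgdh and Shmt2 fell by 2.33, 2.49 and 2.23, and Atf4 itself was at 0.11 (adjusted p = 0.587). The part of this route in the Pck2 level was not tested. Of 8 targets of hypoxia-inducible factors, a route known to raise Slc2a1, 5 fell and 2 rose, with a median of -0.79. Vegfa fell by 1.15, Bnip3 by 1.64 and Ankrd37 by 3.03, while Ca9 rose by 2.74 and Egln3 by 0.45.

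**Figure D5:**
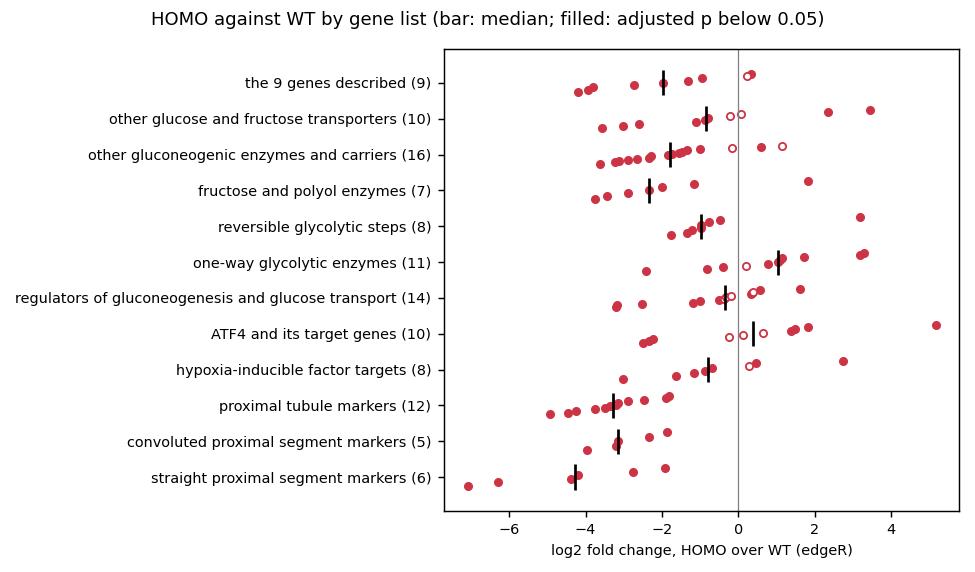
Log2 fold change of HOMO over WT for the 9 genes and for 11 other lists, with the number of genes tested in parentheses. Each point is a gene, filled where its adjusted p was below 0.05 and open where not, and the bar is the list median, from -4.28 for straight segment markers to 1.04 for irreversible glycolytic enzymes.

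Segment and cell type markers are given beside these changes. All 12 proximal tubule markers fell (median -3.28), as did 5 of 5 markers of the convoluted segment (median -3.15) and 6 of 6 of the straight segment (median -4.28). Of 10 distal nephron markers 7 fell and 1 rose (median -1.40), and of 6 endothelial markers 4 fell and 2 rose (median -0.79). Of 3 erythroid markers 1 fell, 2 hepatocyte or enterocyte markers were not called, and of 4 adipocyte markers 1 rose. In HET against WT none of the genes of any list was called. In HOMO against HET, 13 of 16 gluconeogenic genes and 6 of 7 fructose and polyol genes fell and 6 of 11 irreversible glycolytic genes rose.

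For each of the 9 genes, the genes with the most similar pattern over the 12 libraries were found by the root mean square difference of centred log2 CPM among 13805 genes. Slc5a2 lay nearest to Ctsa (difference 0.10), Napsa (0.11) and Acaa1a (0.14), and Slc2a2 to Pikfyve (0.09). Napsa was listed with the straight segment markers, but its log2 fold change in HOMO against WT was -1.93, beside that list's median of -4.28. Slc2a5 lay nearest to Gss (0.15), Ggt1 (0.18) and the straight segment transporter Slc6a18 (0.18). Fbp1 lay nearest to Galnt14 (0.11), Apom (0.12) and Cmbl (0.13), and Khk to Aldh8a1 (0.14). Slc5a1 lay nearest to Alas1 (0.14), Slc2a1 to Bhlhe41 (0.16) and Pck2 to Brat1 (0.07). Pck1 had no close neighbour, as its nearest gene, Upb1, differed by 0.96. All libraries share their depth and scale across genes, so these values describe the libraries and carry no test.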

How the data were processed

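Per the labels' protocols, kidney cortex RNA was extracted with Trizol and prepared with a stranded mRNA kit. The authors deposited raw read counts per gene for 32623 genes, which were used as deposited, and RPKM values and log2 fold changes, p-values and call scores (-1, 0 or 1) of their own comparisons, which were used as a check and named as the authors' where printed. The submitters' processing notes name Rnor_6.0 and edgeR 3.8.6 without a role. For the aligner, the counter and the use of strand, the sources used here give nothing.

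Groups and replicate numbers came from the sample titles. Nothing in the labels says that every library had its own animal, so p-values may measure only a technical spread between samples. Counts were filtered with filterByExpr (minimum count 10, minimum total 15), scaled by TMM and fitted with 1 term per genotype in edgeR 4.0.16 (R 4.3.3, robust quasi-likelihood). The fit was tested on simulated data in which few genes changed, equally up and down, with the same spread for every gene. That test does not cover changes as broad as those in HOMO. "Rose", "fell" and "called" mean a Benjamini-Hochberg adjusted p under 0.05 over the 15856 genes tested. Intervals of fold changes come from this fit. Ratios used counts plus 0.5, and other log2 values a prior count of 2. Motifs were read in RefSeq promoters of GRCr8, and listed starts of genes are those of Rnor_6.0. Depth gave at least 127 counts for each of the 9 genes in each library.

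The 9 genes, the lists and the tests were chosen with earlier results of these data known. From each of 17 lists the rule named the 3 genes with the smallest p and up to 2 called genes against the list's median, and some of them are not reported here. Of 153 list symbols 141 were matched, and the others are not analysed here. Alternatives were no filter, at least 1 CPM in at least 4 libraries, RLE factors, library size alone, DESeq2 1.42.0, only the 2 genotypes compared, the replicate number as a block and leaving out each library.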

Additional observations from a re-analysis of the deposited data

Results flagged for a closer look

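In 42 groups of 4 libraries, 3 had a library whose distance to its nearest neighbour, as a share of the group's range, exceeded Dixon's 95% critical value, which chance gives in about 1 of 20 groups. Xdh stood at 230 CPM in the library labelled HOMO replicate 3, with 57.6 to 61.7 CPM in the other HOMO libraries (gap over range 0.976). The 9 genes kept their directions without this library. Slc2a2 stood at 184 CPM in WT replicate 2, with 145 to 149 CPM in the other WT libraries (gap over range 0.898). The log2 ratio of Slc2a5 to Khk stood at -4.37 in HET replicate 4, with -5.21 to -5.10 in the other HET libraries (gap over range 0.871). The cause of these values was not tested.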

How the results depend on the processing

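Over the alternatives run, 10558 to 12856 genes were called in HOMO against WT and 10450 to 12894 in HOMO against HET. In HET against WT, DESeq2 called 1 gene where edgeR called 0. With library size alone, 987 genes also called on the TMM scale changed direction in HOMO against WT, and 1054 in HOMO against HET. No ratio or value relative to markers passed 0.05 with another count offset or the marker median. Without single libraries, these values were not tested again. Small HET against WT differences could then change sign, such as those of Khk and Slc5a2 relative to the markers. Among the 9 genes, only Slc2a1 changed its call under any alternative run. Against WT it passed with library size alone (0.84, adjusted p = 5.50e-04) and with a replicate block (0.24, adjusted p = 0.0476). Against HET it missed without HET replicate 5 or HOMO replicate 4. The cause was not tested.

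The replicate numbers were not treated as pairs in the main fit. Deviations of same-numbered libraries correlated at -0.13 to 0.44 in 10 pairs and those of other libraries at -0.40 to 0.44 in 38 pairs. These ranges overlap, so they show no pairing by number but cannot exclude one. With the replicate block, 11265 genes were called in HOMO against WT, 0 in HET against WT and 10805 in HOMO against HET, against 11369, 0 and 11199 without it. Of the 9 genes, 9, 0 and 9 were called with the block and 8, 0 and 9 without it. With 4 libraries per group, the exact tests could not give a p below 0.0286.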
